A study of Mus musculus with 6 samples.

Results

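Brush border hydrolase and microvillus genes are described here in chromatin accessibility data from crypts of the mouse intestine. The members were 9 named genes, the hydrolase genes Sis, Lct, Alpi, Anpep, Dpp4, Treh and Mgam and the microvillus genes Vil1 and Myo1a. Peaks were assigned to them when the summit lay in the gene body or within 10 kb of it on GRCm38 with GENCODE M21 genes. The genes held 57 of the 71286 consensus peaks, that is, peaks of different samples merged wherever they shared at least 1 base. ATAC-seq, in which the Tn5 transposase tags DNA in open chromatin, was performed on crypts in 6 samples, 3 wild-type (WT) and 3 Arid3a conditional knockout (cKO). The cKO animals carried VillinCre-ERT2+/- and Arid3a fl/fl, so that recombination was driven by the Villin promoter in the epithelium and stromal cells kept the gene. Both groups were injected with tamoxifen for 3 days and collected 1 month after the first dose. Whether the WT animals carried the Cre transgene or the floxed allele, and the age of the mice, are not given in the sources used here. Nothing in the sources says whether each sample came from 1 animal, so p-values measure the spread between these samples.

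Enterocytes take up digested food through the brush border, a dense carpet of microvilli on their apical face. Its membrane holds the enzymes that finish digestion. Sucrase-isomaltase (Sis), lactase (Lct), maltase-glucoamylase (Mgam) and trehalase (Treh) split disaccharides and short glucose chains, aminopeptidase N (Anpep) and dipeptidyl peptidase 4 (Dpp4) trim peptides, and intestinal alkaline phosphatase (Alpi) removes phosphate groups. Villin (Vil1) bundles the actin filaments of the microvillus core and myosin 1a (Myo1a) links that core to the membrane. The hydrolase genes are classical markers of the differentiated enterocyte on the villus, whereas the crypt holds the stem cells and dividing progenitors. Vil1 is also used below as a marker of the epithelium as a whole. HNF4, CDX and GATA factors are known regulators of many brush border genes.

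The proximal sequence is shown for 5 of the 9 members, all of them hydrolase genes, Lct as the one without a promoter peak. Each run is the 250 bases before the RefSeq transcription start on the sense strand, 5′ to 3′, from RefSeq on GRCm38.p6. Capitals mark matches on either strand to short words sought for 5 kinds of factor. For HNF4, which drives enterocyte maturation, the words were CAAAGTCCA or CAAAGTTCA. For CDX, the family of intestinal homeobox factors, the word was CAATAAA, or the alternative spelling TCATAAA. For GATA, a family of zinc finger proteins, AGATAA was sought together with the related spelling TGATAA. For ARID3, the family to which Arid3a belongs, ATCAAA was sought together with the related spelling ATTAAA. For AP-1, the dimers of Fos and Jun proteins, TGACTCA was sought together with the related spelling TGAGTCA. The ARID3 and CDX words share letters and may overlap. Sis lies at chr3:72967864-72968113 (minus strand) and Lct at chr1:128328319-128328568 (minus), Mgam at chr6:40628581-40628830 (plus), Alpi at chr1:87101607-87101856 (minus) and Treh at chr9:44672983-44673232 (plus).
Sis: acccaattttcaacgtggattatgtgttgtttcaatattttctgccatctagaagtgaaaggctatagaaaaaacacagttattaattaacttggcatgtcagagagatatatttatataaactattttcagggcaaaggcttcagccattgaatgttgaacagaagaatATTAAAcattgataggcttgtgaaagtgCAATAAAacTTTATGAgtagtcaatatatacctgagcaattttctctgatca
Lct: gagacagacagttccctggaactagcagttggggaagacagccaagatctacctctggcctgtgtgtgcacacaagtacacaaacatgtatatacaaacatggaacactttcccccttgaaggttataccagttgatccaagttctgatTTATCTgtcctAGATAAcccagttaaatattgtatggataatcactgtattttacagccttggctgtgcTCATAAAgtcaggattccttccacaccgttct
Mgam: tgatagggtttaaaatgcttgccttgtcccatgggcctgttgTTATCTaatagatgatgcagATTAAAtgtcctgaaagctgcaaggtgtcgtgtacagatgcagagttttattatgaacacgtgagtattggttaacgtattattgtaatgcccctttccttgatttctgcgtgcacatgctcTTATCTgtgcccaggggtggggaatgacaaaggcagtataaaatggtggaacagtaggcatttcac
Alpi: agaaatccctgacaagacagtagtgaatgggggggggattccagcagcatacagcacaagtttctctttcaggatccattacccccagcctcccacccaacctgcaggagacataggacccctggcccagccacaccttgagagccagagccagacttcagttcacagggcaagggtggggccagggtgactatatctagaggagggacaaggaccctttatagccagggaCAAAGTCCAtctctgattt
Treh: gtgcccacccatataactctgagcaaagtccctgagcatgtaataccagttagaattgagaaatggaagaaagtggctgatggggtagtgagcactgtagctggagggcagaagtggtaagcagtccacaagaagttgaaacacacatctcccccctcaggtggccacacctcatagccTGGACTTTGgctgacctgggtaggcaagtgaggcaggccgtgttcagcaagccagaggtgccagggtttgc
The Sis run held 2 CDX words, of which the first began 52 bases before the start, and 1 ARID3 word. The Lct run held 1 CDX word beginning 32 bases before the start and 2 GATA words. The Mgam run held 2 GATA words and 1 ARID3 word, and the runs of Alpi and Treh each held 1 HNF4 word, beginning 19 and 71 bases before the start. All 9 members had a RefSeq entry. Of the runs not printed, that of Dpp4 held 1 GATA word, and those of Anpep, Vil1 and Myo1a held no word of the 5 kinds. Over the 9 members, HNF4 words were found in 2 upstream runs, CDX words in 2, GATA words in 3, ARID3 words in 2 and AP-1 words in 0. Among all 32851 RefSeq runs the shares were 0.715% for HNF4, 7.31% for CDX, 16.6% for GATA, 20.9% for ARID3 and 4.46% for AP-1. A match describes the letters alone.

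The lists held 40492 to 58297 peaks, and none of the 15 pairs was identical. The fold deposited for a peak is the pileup at its summit over the local background, and the whole number of fragments over the summit could be recovered for 100% of peaks in every list. The genome-wide background was 1.75 to 2.29 fragments per base. Arid3a itself had a promoter peak in every WT and every cKO list, so its peaks did not check the labels. Promoter peaks were called in all 6 samples at 4 of 4 epithelial markers (Cdh1, Epcam, Cdx2 and the member Vil1) and at 4 of 4 crypt stem cell markers, at 0 of 4 leukocyte markers and at 2 of 5 mesenchymal and endothelial markers, Col1a1 and Pdgfra. In bulk samples, more cells with an open site and more open copies per cell cannot be told apart.

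A promoter peak in all 6 samples was called at 7 of the 9 members. A summit from 1000 bp before to 100 bp after any annotated start of the gene counted as promoter. The exceptions were Sis, whose promoter peak was called in 5 samples, and Lct, which had none. Over 21911 protein-coding genes, 12273 (56.0%) had a promoter peak in all 6 samples. Of the 57 consensus peaks, 11 were promoter peaks, 45 were distal and 1 lay at the promoter of another gene, the pseudogene Mgam2-ps downstream of Mgam. Called in all 6 samples were 26 (45.6%), as were 45.9% of all consensus peaks. Among the members, 9 of 11 promoter peaks (81.8%) and 16 of 45 distal peaks (35.6%) were called in all 6. The whole set was close to this, with 13383 of 16915 promoter peaks and 19365 of 54371 distal peaks called in all 6. At the members 13 peaks were called in 1 sample, a share that was not counted over all peaks.

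**Figure D1:**
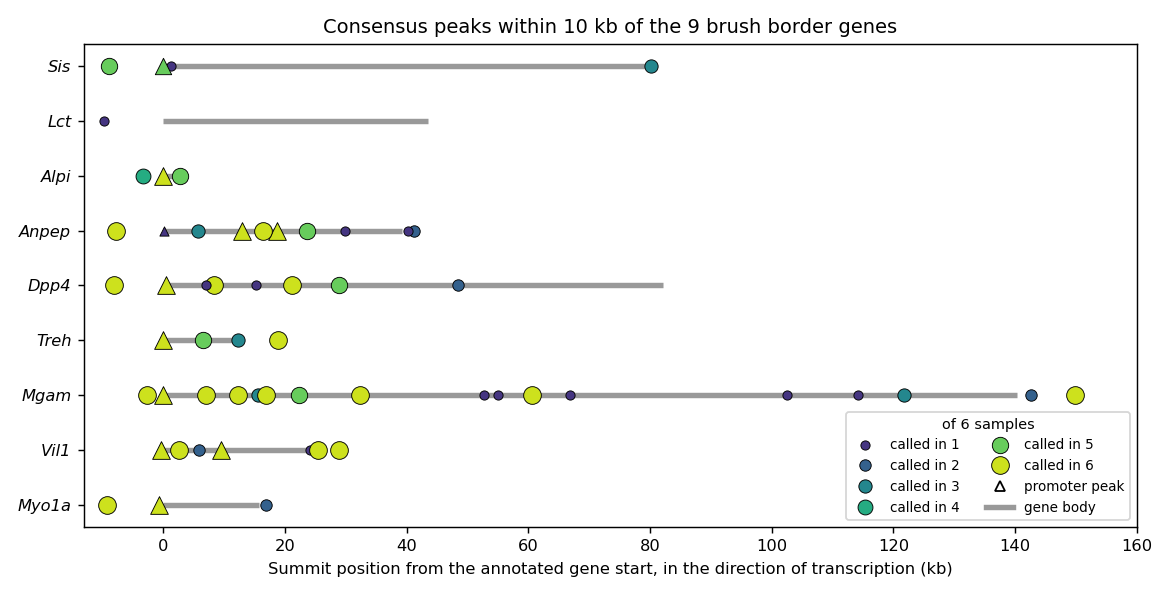
Consensus peaks of the 9 genes, by the position of the summit from the annotated gene start in kb (x axis); triangles are promoter peaks, circles are other peaks, colour and size give the number of samples with a call, and grey bars are gene bodies. Mgam carries the most peaks and Lct a single peak called in 1 sample.

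The disaccharidase genes ranged from 17 peaks at Mgam to 1 at Lct. The Sis promoter peak, with its summit 24 bp before the annotated start (−0.024 kb), had a fold of 10.9, 12.1 and 11.1 in WT 1, 2 and 3 and of 11.2 and 8.98 in cKO 1 and cKO 3, and no peak was called in cKO 2. These folds stood at percentiles of 91.9, 86.1 and 83.5 in the WT lists and of 87.5 and 79.5 in the cKO lists. The pileup behind them was 33, 37 and 35 fragments in WT and 63 and 45 in cKO, near the middle of each list at percentiles of 49.2 to 61.3. The local background at this peak was low, 1 to 2.06 times the genome-wide value. A distal peak at −8.97 kb was called in 5 samples, at a fold of 7.44 and 11.3 in WT 2 and WT 3 and of 10.5, 5.82 and 11.0 in cKO 1, 2 and 3. The list without a Sis promoter peak, cKO 2, had the lowest genome-wide background, 1.75, next to 1.82 in WT 2. In cKO 2 a Sis peak of 11 fragments was called at 80.2 kb. Why the promoter peak was not called there was not tested.

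Lct had 1 peak in 1 of 6 samples. It lay at −9.66 kb in cKO 3, with a fold of 3.46, a pileup of 10 fragments and a percentile of 10.5 in the list by fold. No summit was called in the gene body or in the printed sequence above in any sample. A missing call shows only that no peak passed the caller's threshold, and the lowest pileup of a member peak was 8 fragments.

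Mgam carried 17 of the 57 consensus peaks over a gene body of 140.3 kb. Its promoter peak, with the summit at −0.052 kb, had a fold of 5.02, 5.98 and 5.52 in WT and of 4.81, 4.78 and 4.25 in cKO. The 3 cKO values all lay below the 3 WT values. Pileup at the same summit was 36, 61 and 74 fragments in WT and 103, 38 and 68 in cKO, and the groups overlapped. The distal peak of highest rank lay upstream at −2.56 kb, with a fold of 7.57, 8.71 and 9.05 in WT and of 7.57, 8.0 and 7.23 in cKO. An intron peak at 6.97 kb had 7.25, 8.07 and 8.14 in WT and 6.52, 7.94 and 5.12 in cKO. The peak at the start of Mgam2-ps had a fold of 6.85, 13.0 and 13.3 in WT and of 9.63, 9.48 and 9.52 in cKO, so that WT 1 was the lowest of the 6 samples and WT 2 and 3 the highest.

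Treh, the smallest disaccharidase gene here, had 4 peaks. The promoter peak, which also lies at the start of BC049987, had a fold of 5.89, 5.50 and 6.88 in WT and of 7.06, 4.83 and 7.46 in cKO. Its cKO values spanned those of WT. The strongest peak lay downstream of the gene at 18.8 kb from the start, with a fold of 7.58, 10.2 and 9.88 in WT and of 8.89, 8.63 and 8.05 in cKO.

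By the median percentile of fold over its samples, the peak of highest rank lay at a peptidase gene, Dpp4. At the Dpp4 promoter, with the summit 47 bp after an annotated start, the fold was 9.77, 14.2 and 15.4 in WT and 12.1, 13.2 and 10.2 in cKO. It stood at percentiles of 86.8 to 95.9 in the 6 lists, with a pileup of 56 to 169 fragments. Dpp4 had 4 peaks called in all 6 samples, and the best distal one lay in an intron at 21.2 kb, with a highest fold of 5.28, 8.48 and 10.4 in WT and of 8.07, 5.21 and 9.59 in cKO. Both groups were widely spread at this intron. In single samples other member peaks ranked above the Dpp4 promoter, the Sis promoter in WT 1 (91.9 against 86.8) and the Sis peak at −8.97 kb and the Anpep peak at −7.67 kb in cKO 3 (91.3 and 88.2 against 86.9).

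Anpep had annotated starts spread over its gene body, and its peaks followed the inner ones. At the RefSeq start the peak at 12.9 kb had a fold of 3.95, 6.91 and 6.49 in WT and of 5.47, 5.94 and 4.06 in cKO. A second inner start at 18.7 kb had lower folds, 3.09, 4.62 and 3.85 in WT and 3.68, 4.18 and 3.65 in cKO. At the outermost annotated start a peak was called in cKO 1 alone, with a fold of 3.50 and a pileup of 12. The strongest Anpep peak was the upstream one at −7.67 kb, with 7.82, 9.36 and 8.05 in WT and 9.45, 8.22 and 10.4 in cKO. That distal peak exceeded every Anpep promoter peak in all 6 samples.

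At Alpi the promoter peak had a fold of 4.56, 6.23 and 5.23 in WT and of 5.52, 4.65 and 5.23 in cKO. WT 2 was the highest sample and the others lay between 4.56 and 5.52. The best distal peak, in an exon at 2.80 kb, was called in 5 samples, with 4.30 and 3.90 in WT 2 and WT 3 and 4.22, 3.62 and 3.25 in cKO 1, 2 and 3. All Alpi peaks lay within a local background of 2.86 to 7.96 times the genome-wide value.

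Among the microvillus genes, Vil1 stood apart by its coverage. At its promoter, with the summit just before the annotated start (−0.4 kb), 223, 491 and 509 fragments covered the summit in WT and 712, 324 and 447 in cKO. Between 7 and 12 peaks of each list had a higher pileup. The local background there was 24.8, 40.9 and 51.0 fragments in WT and 81.8, 30.5 and 60.9 in cKO, that is 11.8 to 35.8 times the genome-wide background, and 47 to 83 peaks of a list had a higher one. The fold, which divides the pileup by that background, was 8.69, 11.7 and 9.80 in WT and 8.61, 10.3 and 7.24 in cKO, at percentiles of 64.8 to 84.5. An intron peak at 2.68 kb showed the same contrast. It had 65, 106 and 130 fragments in WT and 156, 78 and 131 in cKO, at percentiles of 81.1 to 86.3 by pileup. Its fold was 2.41, 2.39 and 2.34 in WT and 1.79, 2.34 and 2.00 in cKO, at percentiles of 0.108 to 0.777. Only 5 of the 32748 peaks called in all 6 samples had a percentile of fold under 1 and of pileup over 70 in every list, and this was one of them. The limits of 1 and 70 were not planned before this peak's values were seen, so the count describes it and tests nothing. The high coverage was measured in WT and cKO samples alike. The cKO animals carry a transgene built on the Villin promoter, and fragments from such copies and from the Vil1 gene itself cannot be told apart in these lists.

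An inner start of Vil1 at 9.53 kb had a fold of 5.90, 4.65 and 5.52 in WT and of 4.62, 6.57 and 5.05 in cKO. The best distal peak, at 25.4 kb, had a highest fold of 4.57, 5.86 and 5.41 in WT and of 4.89, 5.81 and 4.0 in cKO. Myo1a had a promoter peak at −0.712 kb with a fold of 5.41, 8.30 and 7.61 in WT and of 6.19, 8.46 and 6.32 in cKO. Its upstream peak at −9.26 kb had 6.72, 7.78 and 10.2 in WT and 9.67, 7.16 and 8.54 in cKO. By the rank of fold among the peaks called in all 6 samples, neither microvillus gene had a peak at which the groups were apart. By the percentile within the whole lists the Vil1 intron peak at 2.68 kb was lower in cKO without overlap, at 0.388, 0.499 and 0.777 in WT and 0.108, 0.353 and 0.255 in cKO, and by the fold itself cKO 2 lay just above WT 3.

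**Figure D2:**
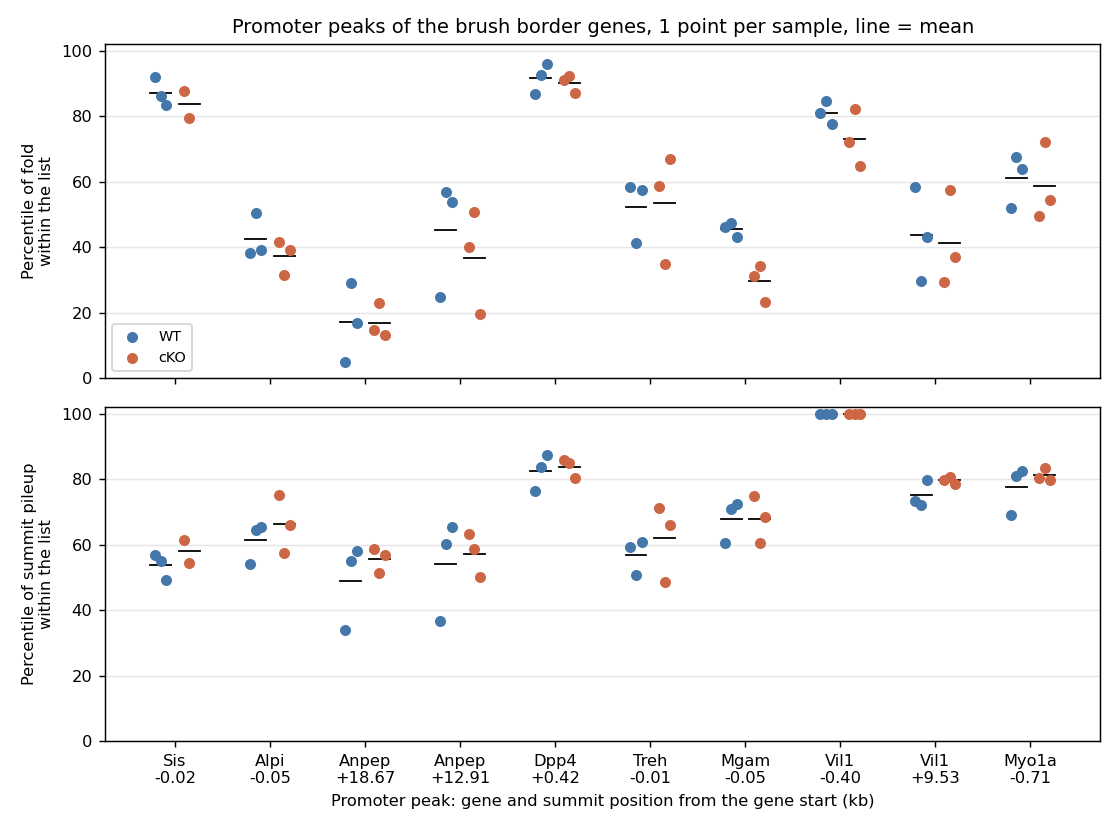
Promoter peaks called in at least 5 samples, each sample as a point and the group mean as a line, by the percentile of fold (top) and of summit pileup (bottom) within the sample's own list. Vil1 (−0.40 kb) is at a percentile of at least 99.97 by pileup in all 6 samples and between 64.8 and 84.5 by fold.

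Promoter peaks of the members ranked above their distal peaks in every sample, by less than in the lists as a whole. The median within-list percentile of fold was 55.1, 53.6 and 55.7 for promoter and 38.9, 34.7 and 29.4 for distal member peaks in WT 1, 2 and 3. In cKO it was 41.6, 50.6 and 46.8 for promoter and 33.1, 31.9 and 30.3 for distal peaks. The promoter medians in cKO thus all lay below those in WT. They rest on unlike sets, 10 promoter peaks in each WT list and 11, 9 and 10 in cKO 1, 2 and 3. The cKO 1 set adds the weak outermost Anpep start, and the cKO 2 set lacks the Sis promoter. By pileup the promoter medians overlapped, at 59.9, 67.8 and 69.0 in WT and 74.8, 60.5 and 67.2 in cKO. The gap was 17.5 ± 5.74 percentile points (SD, n = 6), from 8.48 in cKO 1 to 26.3 in WT 3. It averaged 20.5 ± 5.24 in WT and 14.5 ± 5.37 in cKO (SD, n = 3 each), and the gaps of the groups overlapped. Across whole lists promoter peaks had medians of 73.4 to 77.1 and distal peaks of 39.0 to 42.2. The members' promoter medians by fold therefore lay below the list medians in 6 of 6 samples. By pileup they were also below in every sample, at percentiles of 59.9 to 74.8 against 76.9 to 81.7. The distal medians were below those of the lists by fold. By pileup they were above them in every sample, at 40.5 to 53.7 against 36.6 to 40.3.

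The median local background of the member peaks called in all 6 samples was also above that of all such peaks, but it varied between the genes. Over the 26 peaks, none of them at Sis or Lct, the median ratio of local to genome-wide background was 4.45. It was 3.22 over all 32748 such peaks and 3.61 over the 21 member peaks that were not at Vil1. Over every call at a gene, the median ratio was 1 at Lct, 1.06 at Sis, 4.35 at Alpi and 10.2 at Vil1. At the other members it ran from 1.51 at Dpp4 to 3.21 at Anpep. This ratio differed between libraries. It was highest in cKO 1 at 24 of 26 member peaks and lowest in WT 1 at 25 of 26, and over all such peaks the shares were 83.5% and 77.9%. Because fold is divided by local background, the ranks of fold and of pileup were set side by side below, and the part of this library difference in either was not tested.

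**Figure D3:**
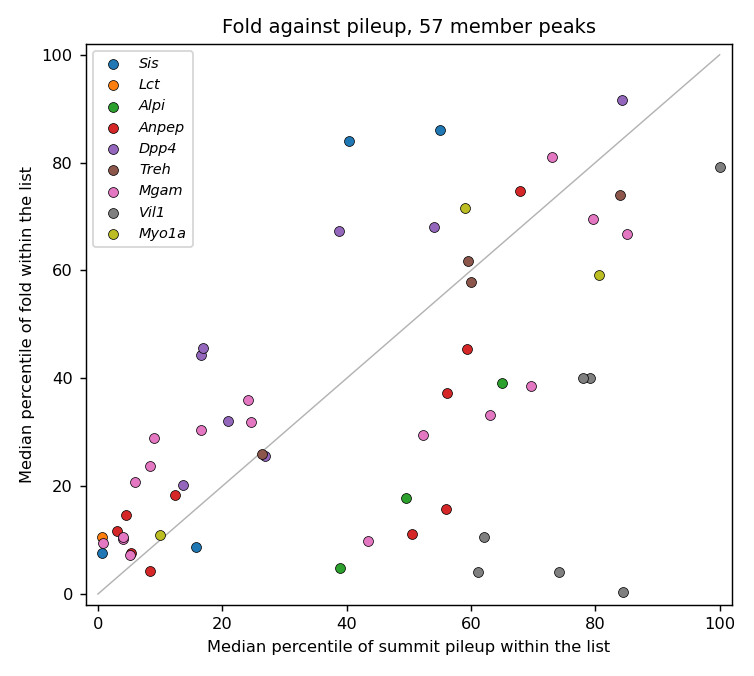
Median percentile of fold (y axis) against median percentile of summit pileup (x axis) within the lists, 1 point for each of the 57 member peaks over the samples in which it was called; the line marks equal percentiles. Vil1 and Alpi peaks lie below the line, and the Sis peaks of high fold lie above it.

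The effect of genotype was examined on the rank of fold among the 32748 peaks called in all 6 samples, so that list length did not enter. Limma on normal scores of that rank called 0 peaks at an adjusted p under 0.05 (0% of 32748), with 2365 peaks (7.22%) at an unadjusted p under 0.05. Of the 26 member peaks, 0 had an unadjusted p under 0.05 by limma, and their adjusted p ran from 0.688 to 0.997. A difference between genotypes was not detectable at any member peak with 3 samples a group.

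At 3 member peaks the cKO ranks all lay below the WT ranks, and at 0 they all lay above. Over all shared peaks these shares were 6.08% and 5.86%. The Mgam promoter peak stood at percentiles of 34.9, 25.1 and 18.4 in WT and 12.8, 16.9 and 10.9 in cKO, a mean of 26.1 ± 8.32 against 13.5 ± 3.04 (SD, n = 3 each). The exact two-sided permutation test gave p = 0.1, the smallest that 3 samples against 3 allow. Every peak without overlap has this value by construction, so it adds nothing to the choice of these 3 peaks. For the Mgam promoter peak the limma adjusted p was 0.711. The Mgam intron peak at 12.4 kb stood at 27.6, 21.0 and 19.3 in WT and 7.79, 7.13 and 12.7 in cKO (exact permutation p = 0.1, limma adjusted p = 0.688). The Treh peak at 18.8 kb stood at 67.7, 66.3 and 63.4 in WT and 56.2, 62.2 and 57.7 in cKO (exact permutation p = 0.1, limma adjusted p = 0.818).

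By pileup these 3 peaks did not separate the genotypes. Ranked by pileup among the same peaks, the Mgam promoter stood at 52.2, 56.0 and 54.6 in WT and 55.6, 45.8 and 50.8 in cKO, and the Mgam intron peak at 41.5, 43.2 and 46.8 against 38.7, 33.0 and 48.8. The local background at the Mgam promoter was 3.02, 5.14 and 6.25 times the genome-wide value in WT and 9.01, 4.09 and 7.0 times in cKO. By pileup 1 member peak did not overlap, and it was higher in cKO. This was the Mgam intron peak at 17.0 kb, with 18.4, 29.1 and 27.9 in WT and 34.0, 33.0 and 39.2 in cKO. Its limma adjusted p was 0.693, and the shares over all shared peaks were 6.68% higher and 6.45% lower in cKO. The pileup ranks were added after the data had been seen.

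**Figure D4:**
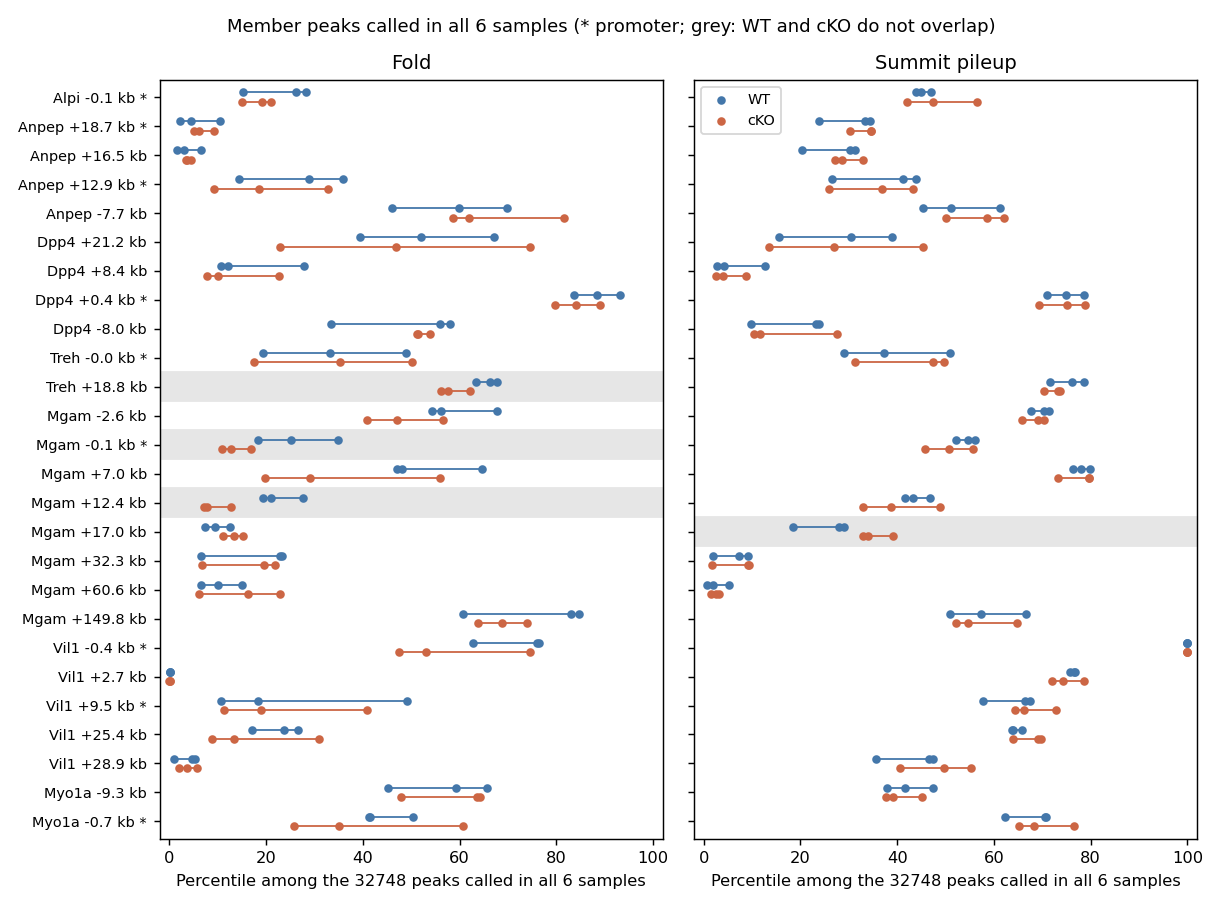
Percentile of the 26 member peaks called in all 6 samples among the 32748 such peaks, by fold (left) and by summit pileup (right), 1 point per sample and a line over each group's range. Grey bands mark peaks whose WT and cKO ranges do not overlap, 3 by fold and a different 1 by pileup.

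In direction, 17 of the 26 peaks had a lower mean fold rank in cKO and 9 a higher one, with a median difference of −3.62 percentile points. Over all shared peaks 53.9% had a lower mean in cKO, and the median was −0.645. Over shared promoter peaks the median was −2.36, with 64.8% of them lower in cKO, and 46.3% of shared distal peaks were lower. Among the members 7 of 9 promoter peaks and 9 of 16 distal peaks had a lower mean. By pileup the median difference of the members was −0.0621, against 0.0221 over all shared peaks.

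Calls themselves did not separate the genotypes. The members had 29, 41 and 49 peaks in WT and 45, 37 and 39 in cKO, a mean of 39.7 ± 10.1 against 40.3 ± 4.16 (SD, n = 3 each). No member peak was present in all 3 cKO lists and absent from all 3 WT lists, a class with 0.464% of all consensus peaks, and none showed the opposite pattern, a class with 0.111%. The 17 peaks called in more cKO than WT samples and the 10 called in more WT samples each differed by 1 or 2 samples, and WT 1 had the shortest list. The same split was not counted over all consensus peaks, so it is not read as a trait of these genes.

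Promoter peaks of other brush border genes were counted in the same way. Among the 11 further hydrolase genes found in the annotation, such as Ace, Enpep and Mme, 8 had a promoter peak in all 6 samples, Akp3 had one in some samples, and Enpp7 and Folh1 had none. Among 14 further microvillus genes, such as Ezr, Espn and Eps8, 13 had one, and Tmigd1 had one in some samples. The hydrolases had 1 of 24 shared peaks with higher and 1 with lower non-overlapping fold ranks in cKO, and the microvillus genes 2 and 2 of 58. Of the stem and proliferation genes, 9 of 9 had a promoter peak in all samples, and 4 of their 28 shared peaks were lower and 0 higher in cKO. Of the secretory genes, 1 of 9 had a promoter peak in all samples, Agr2. A further 4 (Lyz1, Chga, Neurog3 and Dclk1) had one in some samples, and 4 had none. Of the 9 shared peaks of the secretory genes, 1 was higher and 1 lower in cKO. Over all shared peaks, 5.86% were higher and 6.08% lower in cKO by this measure. Over all protein-coding genes, 56.0% had a promoter peak in all 6 samples. The lists are short and their counts were not tested, so they are not read as traits of these genes.

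Around the summits, member peaks were compared with all peaks of their class for the same words within 100 bp on either side. HNF4 words were in 2 of 11 promoter peaks, those of Treh and Myo1a, against 0.993% of all promoter peaks, and in 1 of 45 distal peaks (2.22%) against 2.99%. CDX words were in 1 promoter peak, that of Sis, against 2.87%, and in 2 of 45 distal peaks (4.44%) against 10.5%. ARID3 words were in 3 of 11 promoter peaks (Sis, Mgam and the inner Vil1 start) and 14 of 45 distal peaks, against 6.97% and 18.8%. GATA words were in 17 of 45 distal peaks and 1 of 11 promoter peaks, the Mgam promoter, against 24.5% and 7.71%, and the Mgam intron peak at 12.4 kb held 3. AP-1 words were in 8 distal and 0 promoter peaks, against 9.61% and 3.56%. A+T content had a median of 43.3% in member promoter peaks, against 36.3% in all promoter peaks, and of 52.2% against 50.7% in distal peaks.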

How the data were processed

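Narrow peaks of 6 ATAC-seq samples were analysed. The authors ran nf-core/atacseq: after adapter trimming (Trim Galore) and alignment to GRCm38 (BWA), MACS2 called peaks in each sample without an input control. In the score column of the authors, −log10 q was multiplied by 10. The deposited fold is the ratio of the summit pileup to the local background, each with 1 added, and the deposited −log10 p and −log10 q come from a Poisson model of it. Depth was not given in the lists. Pileup and background were recovered from fold and −log10 p, with whole numbers in 100% of peaks (tolerance 0.0005).

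Chromosomes 1 to 19, X and Y were kept. Lists were merged into consensus peaks, and a sample's value was its peak of highest fold. Ranks of fold among peaks called in all 6 samples were converted to normal scores. They were compared (cKO minus WT) with limma 3.58.1 (trend, Benjamini-Hochberg over 32748 peaks, threshold 0.05). A run on simulated data used large planted shifts in independent noise, so it does not show the power for smaller differences. For single peaks an exact permutation test (two-sided) over the samples was added. Ranks leave out absolute signal. The named peaks were every promoter peak, the best distal peak of each gene and every peak with non-overlapping ranks. A few further peaks (the Mgam intron at 6.97 kb, the Mgam2-ps start and the Vil1 intron at 2.68 kb) were named after their values were seen. Replicate numbers were not used as pairs in the main comparison. Members and gene lists were chosen with earlier results of these data known. Alternatives were other rank measures, another promoter window, other gene windows, lists cut to equal length, a −log10 q minimum of 5, summits within 250 bp, absent peaks at the lowest rank, a replicate block and leaving out each sample. Analyses ran under Python 3.11.15, numpy 2.4.6, pandas 2.3.3, scipy 1.17.1 and R 4.3.3. A further motif and a gene of a comparison list are not reported here, and Cpo was not found in the annotation used.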

Additional observations from a re-analysis of the deposited data

How the results depend on the processing

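The number of shared peaks with an adjusted p under 0.05 by limma was 0 and remained 0 under 5 alternatives and without any single sample. It was 1 with log2 fold, 6 with absent peaks at the lowest rank and 2 with a replicate block, and none of these was a member peak. Samples with the same replicate number deviated from their group means with correlations of −0.270, −0.00494 and 0.122, and the block changed no other call. Such correlations cannot show whether samples with the same number were prepared together. At an unadjusted p under 0.05, the count of 2365 peaks became 4304 with absent peaks at the lowest rank, 6149 without cKO 2, 1288 without cKO 1 and 1214 without cKO 3. The causes were not tested.

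Member peaks with non-overlapping ranks numbered 3 of 26, all lower in cKO. They numbered 1 of 15 in gene bodies alone and 5 of 65 with windows of 50 kb. Of the 26, 4 were apart by within-list percentile, 3 by −log10 q and 1, higher in cKO, by pileup. When a sample was left out, which leaves fewer values to overlap, they numbered 5 (without WT 1 or cKO 1), 6 (WT 2), 7 (WT 3), 9 (cKO 2) and 3 (cKO 3). Among them, 1 was higher in cKO without WT 1, cKO 1 or cKO 2, and 2 without WT 2. Shares over all shared peaks were computed only for the ranks of fold and of pileup with all 6 samples. The counts by within-list percentile, by −log10 q and with a sample left out therefore cannot be set against a share. Of the 3, 2 (both at Mgam) were also lower without overlap by within-list percentile and by −log10 q, and 0 by pileup. The Vil1 peak at 2.68 kb was lower in cKO by both of those measures and the Mgam peak at −2.56 kb by within-list percentile, while the Treh peak at 18.8 kb overlapped. The mean difference in member peaks per sample, 0.667 (cKO minus WT), ranged from −4.67 without WT 1 to 5.33 without WT 3 when 1 sample was left out, and was 6 with windows of 50 kb. The promoter minus distal gap of 17.5 points ranged from 15.7 to 19.3 without 1 sample, and moved by less than its SD under the other alternatives.

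Of 121 recomputed differences at 11 single peaks, 103 kept their direction and none passed the threshold (lowest adjusted p 0.208). The other 18 changed sign. With −log10 q these were Alpi (−4.88 to 1.12), the Vil1 inner start (−2.26 to 3.43) and Myo1a (−3.90 to 1.60). By pileup they were Alpi (3.39), the Vil1 promoter (−13.3 to 0.00102), the Vil1 inner start (3.93) and Myo1a (2.15). The Anpep inner start at 18.7 kb went from 1.17 to −0.133 by within-list percentile and to −0.0339 on log2 fold. Without 1 sample, that peak ranged from −0.533 to 3.52 (WT 1 and cKO 2 turned it), Treh from −7.49 to 8.87 around 0.457 (WT 2, cKO 1 and cKO 3 turned it), the Vil1 inner start from −10.8 to 9.24 (WT 1, cKO 1 and cKO 3 turned it) and Myo1a from −14.0 to 3.50 (cKO 1 turned it). At these 11 peaks the lowest pileup was 21 fragments, at the Anpep start at 18.7 kb in WT 1, and over all member peaks it was 8, which limits the precision of the folds.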
